A study of Homo sapiens with 13 samples.

Results

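The genes examined were 10 that promote or restrain passage through the G1 phase: the D-type cyclins CCND1, CCND2 and CCND3, their kinases CDK4 and CDK6, the kinase inhibitors CDKN1A (p21), CDKN1B (p27), CDKN2C (p18) and CDKN2D (p19), and the retinoblastoma gene RB1. They were chosen by name, out of 20033 protein-coding genes of GENCODE version 44, and each was examined with 10 kb either side. The study profiled chromatin of untreated MOLM-13 cells, an established human acute myeloid leukemia line, with CUT&Tag (a transposase brought to the target by an antibody inserts adapters into nearby chromatin) and CUT&RUN (a nuclease brought in the same way cuts it). Antibodies recognised PTBP1, a splicing regulator, RUNX1, a hematopoietic transcription factor, the repressive histone mark H3K27me3, or no target (IgG). The 13 libraries were 2 biological replicates each of PTBP1 and RUNX1 in both assays and of H3K27me3 and IgG in CUT&RUN, with 1 IgG library in CUT&Tag, all from this 1 line. What is described below rests on 2 peak lists, 9370 peaks for PTBP1 and 7688 for RUNX1, and replicate spread could not be computed. Intervals cover counting error only.

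D-type cyclins accumulate when growth signals arrive, and they activate CDK4 and CDK6. These kinases phosphorylate the retinoblastoma protein, which then releases E2F transcription factors and lets the genes of DNA replication be transcribed. INK4 proteins such as p18 and p19 bind CDK4 and CDK6 directly, whereas the CIP/KIP proteins p21 and p27 bind cyclin-kinase complexes and are best known for restraining CDK2. In blood cells these proteins bear on whether a progenitor divides or leaves the cycle to differentiate.

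Peaks lay at 8 of the 10 genes. A PTBP1 peak was found in the gene or its flanks in 7 of 10 genes (all coding genes 39.4%), a RUNX1 peak in 8 of 10 (36.8%) and a peak of each list in 7 of 10 (29.5%). The 7 were CCND3, CDK4, CDK6, CDKN1A, CDKN1B, CDKN2C and CDKN2D. RB1 had RUNX1 peaks alone, and CCND1 and CCND2 had no peak of either list. The median length of the 10 genes was 24.7 kb (2.6 to 296 kb), beside 27.5 kb for all coding genes. CCND3 (115 kb), CDK6 (232 kb) and RB1 (296 kb) were longer than the upper quartile of all coding genes, 71.7 kb. The part of gene length in the counts was not tested. With 10 genes, the shares above are loose: the 95% Wilson interval of 7 in 10 ran from 39.7 to 89.2%.

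Where the start of each gene is placed decided how many of them counted as bound there. Within 1 kb of the 5-prime end of the gene record, 3 genes had a PTBP1 peak (26.4% of all coding genes), 2 had a RUNX1 peak (21.3%) and 2 had a peak of each list (17.3%). Within 1 kb of the start of the canonical transcript, which is the one reference transcript that GENCODE marks for a gene, the counts were 4 (27.5%), 5 (22.4%) and 4 (18.2%). Within 1 kb of the start of any annotated transcript they were 6 (30.3%), 7 (25.0%) and 6 (20.3%). The RUNX1 count was the one that crossed its background, from 20% at the 5-prime end of the record to 50 and 70% under the other definitions. The canonical start lay over 1 kb from the 5-prime end of the record in 6 of the 10 genes, against 16.6% of all coding genes, and the distances ran up to 108549 bases in CCND3. These genes also had more annotated starts, a median of 7 beside 5.

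**Figure D1:**
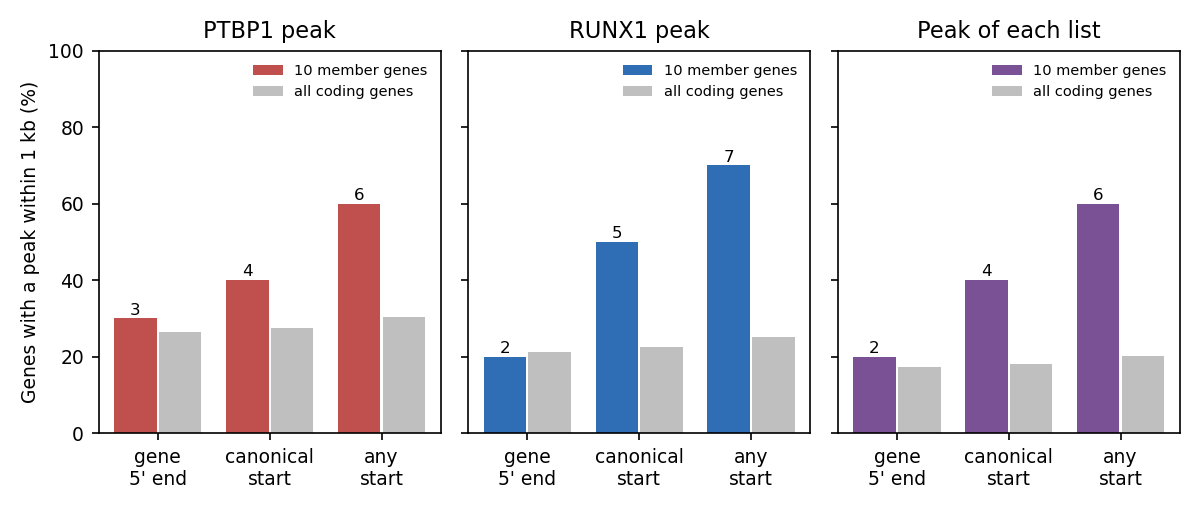
Bars give the percentage of genes with a peak within 1 kb of the gene's 5-prime end, of the canonical start or of any transcript start, for the 10 genes (coloured, with the count above) and for all 20033 coding genes (gray). The coloured bars rise from left to right in each panel, from 3 to 6 genes for PTBP1 and from 2 to 7 for RUNX1. The gray bars rise too, by less: from 26.4 to 30.3% for PTBP1, 21.3 to 25.0% for RUNX1 and 17.3 to 20.3% for both.

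In all, 14 PTBP1 and 16 RUNX1 peaks fell in the windows. Fold enrichment, the fragment pileup at the summit over the background with 1 added to each, ran from 6.49 to 33.7 with a median of 12.2 for PTBP1, the same median as the whole list. For RUNX1 it ran from 10.5 to 74.4 with a median of 12.0, beside 15.0 for the list. RUNX1 peaks of CCND3 and CDKN2D stood at the top of that range. The usual background stood at 0.720 fragments for PTBP1 and 0.330 for RUNX1, so a given fold stands for different fragment numbers in each. A raised background, over 1.5 times the usual value, lay under 3 of 14 PTBP1 peaks (4.86% of the list) and 3 of 16 RUNX1 peaks (5.14%), and all 6 belonged to CDK4 and CDKN1A.

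**Figure D2:**
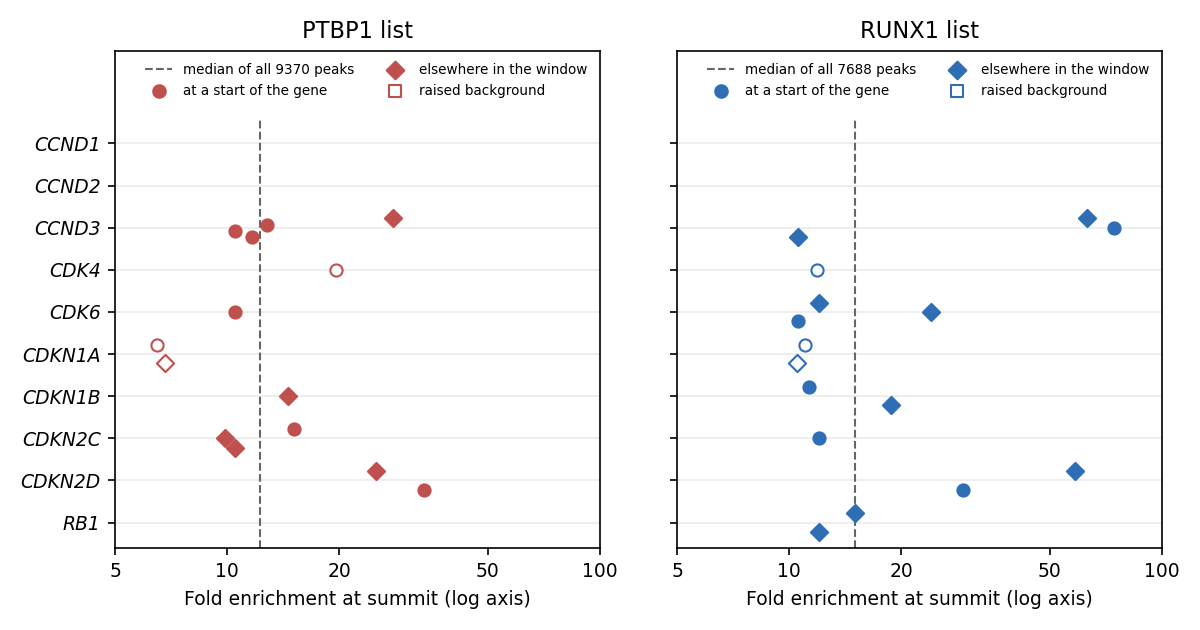
Each point is 1 peak, placed by gene (rows) and by fold enrichment at the summit (log axis), with the PTBP1 list on the left and the RUNX1 list on the right. Circles lie within 1 kb of a transcript start of the gene, diamonds elsewhere in its window, open symbols stand on a raised background, and dashed lines mark the median of each list. RUNX1 at CCND3 and CDKN2D reached 58.6 to 74.4, while most other points lay between 10 and 30.

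The RUNX1 summits below, 4 in all and away from the genes' own starts, were picked because the RUNX motif, TGTGGT or TGCGGT, lies near them. Whether the motif accounts for these peaks was not tested. Each stretch is 101 bases of hg38 centered on the summit, read on the strand that carries the motif, which stands in capitals. For CDK6, which had more than one such peak, the stronger is shown. They lie at chr6:42045772-42045872 (plus strand, between the distant first exon of CCND3 and its canonical start), chr7:92642292-92642392 (plus strand, intron 5 of CDK6), chr19:10566091-10566191 (minus strand, beyond the 3-prime end of CDKN2D) and chr13:48562450-48562550 (minus strand, beyond the canonical transcript of RB1).
CCND3: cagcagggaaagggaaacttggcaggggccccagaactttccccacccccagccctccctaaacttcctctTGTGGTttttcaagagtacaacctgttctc
CDK6: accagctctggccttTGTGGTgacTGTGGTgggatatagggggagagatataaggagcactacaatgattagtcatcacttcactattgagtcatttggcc
CDKN2D: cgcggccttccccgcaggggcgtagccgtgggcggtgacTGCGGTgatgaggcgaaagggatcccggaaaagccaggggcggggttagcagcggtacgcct
RB1: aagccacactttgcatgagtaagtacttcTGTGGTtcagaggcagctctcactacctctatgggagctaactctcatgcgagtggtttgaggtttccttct

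The motif was 21 bases from the summit in CCND3, 6 in CDKN2D and 16 in RB1, and the CDK6 stretch held it at 2 places whose first bases were 9 apart. In CCND3, CDK6 and RB1 the word was TGTGGT, and in CDKN2D it was TGCGGT. The CDKN2D stretch was also the richest in G and C, at 70.3%, against 46.5% for that of CDK6. Among the peaks shown, only that of CDKN2D overlapped a PTBP1 peak. The strongest RUNX1 peaks at the 10 genes, at CCND3 with 98 and 83 fragments, held no RUNX motif within 50 bases of the summit. Over their whole widths of 4731 and 2095 bases, they held 3 and 2.

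For contrast, the strongest peak of each list at a gene's 5-prime end was the same site, the CDKN2D start. Its 30 bases around the shared summit, chr19:10568963-10568992 on the minus strand, run from just before the canonical start into the first exon, with the GC box (GGGCGG on either strand) in capitals.
CDKN2D start: gcggcgcaggctcagagcagaccCCGCCCg

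RefSeq promoters, here the 250 bases before an annotated start, were listed for 8 of the genes in 13 entries. CCND1 and CCND2 had no entry, and the only one of RB1 was at an internal start. CCND3, CDK6 and CDKN2C had more than one entry each. Entries of CDK4, CDK6, CDKN1A and CDKN1B held a summit and are shown because the peaks lie within these bases. They are credited to RefSeq on GRCh38.p14 and match hg38 base for base at chr12:57752311-57752560 (minus), chr7:92833960-92834209 (minus, an internal start of CDK6), chr6:36678464-36678713 (plus) and chr12:12717118-12717367 (plus). GC boxes are in capitals, and of the 4 only CDK6 lacked one.
CDK4: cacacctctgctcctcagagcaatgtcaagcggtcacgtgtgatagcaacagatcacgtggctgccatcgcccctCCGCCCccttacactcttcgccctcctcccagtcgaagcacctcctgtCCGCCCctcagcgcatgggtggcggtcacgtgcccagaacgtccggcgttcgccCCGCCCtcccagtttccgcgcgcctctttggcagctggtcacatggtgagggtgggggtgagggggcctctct
CDK6: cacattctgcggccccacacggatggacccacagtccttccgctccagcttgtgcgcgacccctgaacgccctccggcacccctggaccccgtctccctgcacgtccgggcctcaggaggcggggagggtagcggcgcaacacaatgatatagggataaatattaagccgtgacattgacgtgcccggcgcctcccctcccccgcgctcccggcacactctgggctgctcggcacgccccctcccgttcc
CDKN1A: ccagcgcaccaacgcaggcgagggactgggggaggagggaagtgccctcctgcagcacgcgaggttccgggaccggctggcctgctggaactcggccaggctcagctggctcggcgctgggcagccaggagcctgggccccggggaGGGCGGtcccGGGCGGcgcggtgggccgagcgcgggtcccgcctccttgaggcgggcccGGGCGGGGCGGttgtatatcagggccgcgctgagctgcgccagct
CDKN1B: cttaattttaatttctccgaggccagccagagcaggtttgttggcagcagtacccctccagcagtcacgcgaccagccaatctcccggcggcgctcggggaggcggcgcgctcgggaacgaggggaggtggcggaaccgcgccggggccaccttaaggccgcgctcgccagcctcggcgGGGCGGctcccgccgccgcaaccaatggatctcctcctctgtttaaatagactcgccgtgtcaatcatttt

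GC boxes numbered 3 in the CDK4 stretch, 4 in CDKN1A, where a pair overlapped, and 1 in CDKN1B. Over the 13 listed promoters 9 held a GC box, CCND3 and CDKN2C counting more than once, against 42.6% of 35116 RefSeq promoters of this length. No RUNX word was found in the 13 (16.3% of all promoters) and no E2F word (2.32%), searched as TTTGGCGC, TTTCGCGC or TTTCCCGC. The promoters of CCND1 and CCND2 and that of the canonical RB1 start were not among those searched. The ETS word CCGGAAG was found in 1, that of the canonical CCND3 start (8.52%). All words were sought on both strands.

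Among the cyclins, the lists separated CCND3 from its relatives. CCND1 (chr11:69641156-69654474) and CCND2 (chr12:4269771-4305353), both on the plus strand, had no peak within 10 kb. The nearest peak to CCND1 was a PTBP1 peak 20.7 kb beyond its 3-prime end with a fold of 8.72, and the nearest RUNX1 peak lay 135 kb upstream. CCND2 had a RUNX1 peak at chr12:4320835-4321631, 15.5 kb beyond its 3-prime end, with a fold of 33.8, and no PTBP1 peak for 1393 kb. That RUNX1 peak was among the nearest outside the 10 kb limit. The peak nearest outside it was a PTBP1 peak 14.5 kb from CDK6 with a fold of 15.7, and the farthest inside was a PTBP1 peak 3346 bases from CDKN2C with a fold of 10.5.

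CCND3, the D cyclin on chromosome 6 (chr6:41934934-42050357, minus strand), had 4 PTBP1 and 3 RUNX1 peaks. Its canonical transcript starts at 41941808 and is 6857 bases long, while other annotated transcripts start far upstream. RUNX1 peaks covered 88.4% of the canonical transcript and PTBP1 peaks 61.1%, the highest cover of the 10 genes for each. The RUNX1 peak at chr6:41937841-41942571 was 4731 bases wide, the 5th widest of 7688, and took in the canonical start. Its summit lay 2179 bases downstream in intron 2, with 98 fragments (95% Poisson interval 79.6 to 119) and a fold of 74.4, rank 165 of 7688.

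The second RUNX1 peak of CCND3, chr6:41934990-41937084, had its summit in intron 4 with 83 fragments (66.1 to 103) and a fold of 63.2, rank 250. A PTBP1 summit lay 3 bases from it, with 47 fragments (34.5 to 62.5) and a fold of 27.9, rank 1120 of 9370. It was the strongest PTBP1 peak at any cyclin or kinase gene here by fold. The other PTBP1 peaks of this stretch were weaker, with a fold of 12.8 from 21 fragments in intron 2 and of 10.5 from 17 fragments in exon 1, which was 206 bases downstream of the canonical start. Both lay under the wide RUNX1 peak, 1261 and 1973 bases from its summit. At the distant 5-prime end the lists parted. A PTBP1 peak with 19 fragments lay 231 bases before the first annotated start, and also 64 bases from the start of TAF8, a subunit of the general transcription factor TFIID. The RUNX1 peak with the motif shown above, 13 fragments and a fold of 10.5, lay 4535 bases inside the gene from that end and met no PTBP1 peak.

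CDK4 (chr12:57747727-57756013, minus strand) had 1 peak of each list, and both had their summit at the same base, 57752472, which is 162 bases upstream of the canonical start and 25 upstream of another coding transcript's start. The PTBP1 summit had 135 fragments (113 to 160), the most of any PTBP1 peak in the windows and rank 165 of 9370 by fragments. By fold, 19.6, it ranked 2123, since the background there was 5.93 fragments. The RUNX1 summit had 43 fragments (31.1 to 57.9) over 2.72, a fold of 11.8. In each list the background was 8.24 times the usual value.

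CDK6 (chr7:92604921-92836573, minus strand) had no peak within 1 kb of its canonical start. The lists met instead in intron 1, at an internal start of a coding transcript, where the PTBP1 summit lay 72 bases upstream of that start with 17 fragments (9.9 to 27.2) and the RUNX1 summit 165 upstream with 13 (6.92 to 22.2). Folds were 10.5 in each list, near the lower end of each range. RUNX1 had a further pair of peaks about 194 and 197 kb into the gene, in intron 5, that met no PTBP1 peak. The stronger, whose sequence is shown above, had 31 fragments (21.1 to 44) and a fold of 24.1, rank 1719, and lay at the start of a long noncoding RNA gene, ENSG00000287932. The weaker, at chr7:92639566-92639890, had 15 fragments and a fold of 12.0. Each of the 2 held 2 RUNX words within 50 bases of the summit, as did 4.62% of RUNX1 summits.

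Of the CIP/KIP inhibitors, CDKN1A had paired peaks on a raised background and CDKN1B had peaks that parted. CDKN1A, the p53 target p21 (chr6:36676460-36687337, plus strand), had 2 peaks of each list. At the canonical start the PTBP1 summit lay 12 bases upstream with 44 fragments (32.0 to 59.1) and the RUNX1 summit 4 bases downstream, in the 5-prime UTR, with 40 (28.6 to 54.5). In intron 1 the summits were 4 bases apart, with 46 fragments for PTBP1 and 38 for RUNX1. The folds were only 6.49 and 6.78 for PTBP1 and 11.0 and 10.5 for RUNX1, since the background under all 4 was 8.24 times the usual one. By fragments, the PTBP1 summits ranked 1472 and 1382 of 9370. By fold they ranked 9132 and 9117. The 5-prime end of the long noncoding RNA gene DINOL also lay within 1 kb of the pair at the start. The part of the raised background in the CDK4 and CDKN1A peaks was not tested. Without such peaks 5 genes had a PTBP1 peak and 6 a RUNX1 peak in the windows. The shares of all coding genes given above keep such peaks, so these reduced counts have no matching share.

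CDKN1B, which encodes p27 (chr12:12685498-12722369, plus strand), had a RUNX1 peak 96 bases upstream of its canonical start with 14 fragments (7.65 to 23.5) and a fold of 11.3, and no PTBP1 peak overlapped it. This was the only gene of the 10 with a RUNX1 but no PTBP1 peak at a start. A pair of overlapping peaks lay beyond the 3-prime end of CDKN1B, with 24 fragments in each list (15.4 to 35.7). Folds were 14.5 for PTBP1 and 18.8 for RUNX1, and the summits were 315 bases apart. That pair was within 1 kb of the 5-prime end of APOLD1, an endothelial early response gene, and of a noncoding gene, ENSG00000256658.

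The INK4 genes differed in which start was marked. CDKN2C, which encodes p18 (chr1:50960745-50974634, plus strand), had peaks of both lists at the 5-prime end of its record, 332 bases upstream for the PTBP1 summit (25 fragments, fold 15.1) and 538 for RUNX1 (15 fragments, fold 12.0). FAF1, a ubiquitin-binding adaptor gene read in the opposite direction, starts 146 and 60 bases from these summits. The canonical CDKN2C start, 9500 bases further in, had no peak of either list within 1 kb, the nearest being 6.83 kb away for PTBP1 and 9.51 kb for RUNX1. A pair of unshared PTBP1 peaks lay beyond the 3-prime end, with 16 and 17 fragments.

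CDKN2D, which encodes p19 (chr19:10566460-10569059, minus strand), was the shortest of the 10 genes at 2.6 kb and the one with the highest fold of each list at the 5-prime end of its record. Both lists had their summit at base 10568977, 2 bases into the first exon. PTBP1 had 57 fragments (43.2 to 73.9), a fold of 33.7 and rank 781 of 9370, its highest fold at any of the 10 genes. RUNX1 had 38 fragments (26.9 to 52.2), a fold of 29.3 and rank 1234 of 7688. Beyond the 3-prime end, at the start of KRI1, a ribosome biogenesis gene, another pair of summits lay 87 bases apart. There RUNX1 had 77 fragments (60.8 to 96.2) and a fold of 58.6, rank 288, and PTBP1 had 42 (30.3 to 56.8) and a fold of 25.0, rank 1354. The order of the 2 sites within each list was thus opposite, with PTBP1 higher at CDKN2D and RUNX1 higher at KRI1, though the PTBP1 fragment intervals overlap. Peaks covered 48.5% of the canonical CDKN2D transcript for PTBP1 and 50.2% for RUNX1. The larger part of this cover came from the pair at KRI1, which reached into the transcript as far as base 10567269 for PTBP1 and 10567234 for RUNX1.

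RB1, which encodes the pocket protein that CDK4 and CDK6 phosphorylate (chr13:48303744-48599436, plus strand), had no peak at its start. The nearest peak to its canonical start was 229 kb away for RUNX1 and 266 kb for PTBP1. Its 2 RUNX1 peaks lay past the end of the canonical transcript, in a part that belongs to RB1 only because its record runs 117546 bases further. One, with 19 fragments and a fold of 15.0, was 220 bases from the start of RCBTB2, another gene. The other, with 15 fragments (8.4 to 24.7) and a fold of 12.0, held the RUNX word shown above and lay within 1 kb of no annotated gene's 5-prime end. Neither met a PTBP1 peak.

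**Figure D3:**
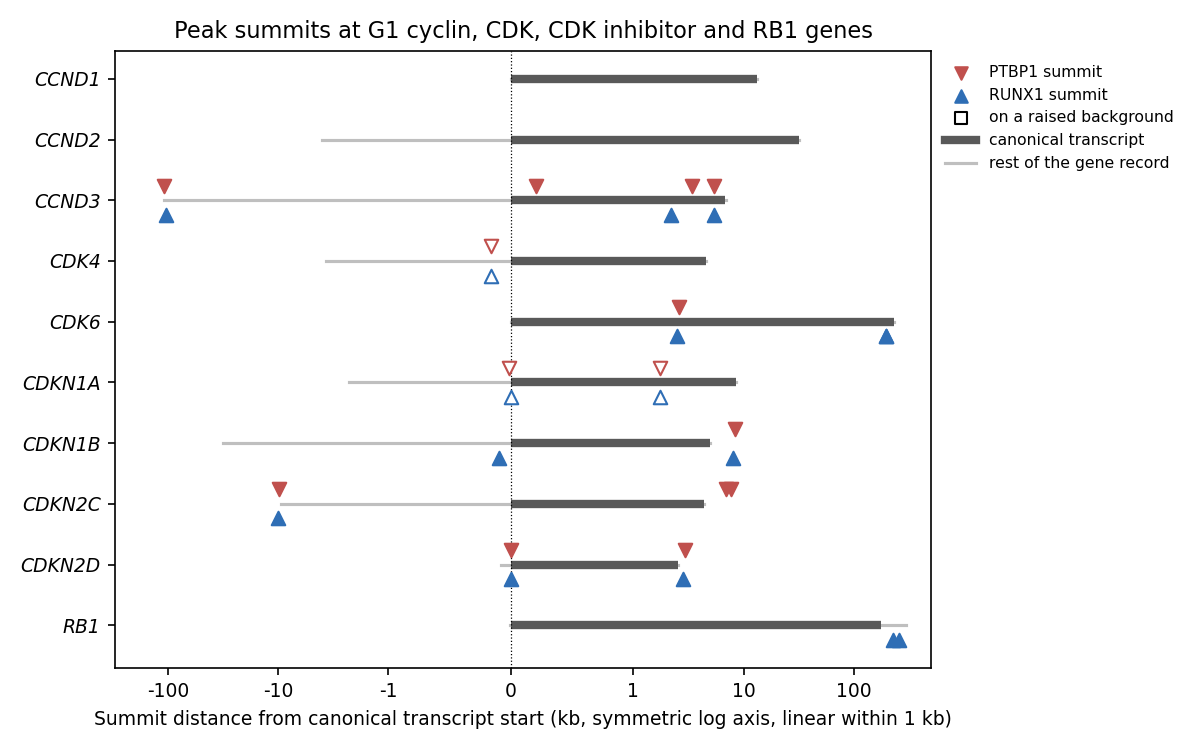
Summit positions of PTBP1 (red, above each line) and RUNX1 (blue, below) relative to the start of the canonical transcript, in kb on a symmetric log axis that is linear within 1 kb. Thick bars are canonical transcripts, thin lines the rest of the gene record and open symbols peaks on a raised background. CCND1 and CCND2 have no symbols, CDKN2D and CDKN1A have summits of both lists at the start, and the RB1 symbols lie past its thick bar.

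Across the windows, 11 of 14 PTBP1 peaks shared at least 1 base with a RUNX1 peak (78.6%, 95% Wilson interval 52.4 to 92.4%), and over the whole PTBP1 list 49.2% did. In the other direction 10 of 16 RUNX1 peaks overlapped a PTBP1 peak (62.5%, 38.6 to 81.5%), against 60.2% of the RUNX1 list. These made 11 overlapping pairs, in which the summits were 0 to 1973 bases apart with a median of 87, and 7 pairs had summits within 200 bases. Ranked by fold within its own list, the RUNX1 peak stood higher in 7 pairs and the PTBP1 peak in 4, the latter at CDK4, CDK6, CDKN2C and the start of CDKN2D. Ranked by fragments, the tally was 5 and 6, because both CDKN1A pairs, which lie on a raised background, changed side. The wide RUNX1 peak of CCND3 enters both tallies in 2 pairs. By fold it stood in the top 2.15% of its list and the PTBP1 peaks beneath it in the top 44.2 and 60.7%. At CDK4 the order was the other way, with PTBP1 in the top 22.7% and RUNX1 in the top 67.2%.

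By place, 8 of the 14 PTBP1 peaks lay within 1 kb of a transcript start of their gene, 2 within 1 kb of the 5-prime end of another gene only and 4 near neither. For RUNX1 the counts were 7, 4 and 5. The neighbours were KRI1 and APOLD1 for both lists and RCBTB2 and the noncoding ENSG00000287932 for RUNX1. Some peaks counted for CDKN2D, CDKN1B, RB1 and CDK6 thus stand at the 5-prime ends of other genes. For APOLD1 the canonical start was not within 1 kb. Some peaks counted at own starts also lay nearer the canonical start of another gene. These were the PTBP1 peak upstream of CCND3, nearer TAF8, and the peaks of both lists at the 5-prime end of CDKN2C, nearer FAF1. Of the peaks at own starts, 7 of 8 PTBP1 and 6 of 7 RUNX1 peaks overlapped a peak of the other list. Of the peaks within 1 kb of any coding start, 9 of 10 PTBP1 and 8 of 10 RUNX1 peaks did so. Over the whole lists, 56.8% of PTBP1 and 77.3% of RUNX1 peaks within 1 kb of a coding start did so.

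The RUNX word lay within 50 bases of the summit in 5 of 16 RUNX1 peaks (31.25%, 95% Wilson interval 14.2 to 55.6%) and in 24.2% of the list. It was found in 1 of 10 RUNX1 peaks that overlapped a PTBP1 peak (14.4% of such peaks in the list) and in 4 of 6 that did not (38.9%). Seen by place, it was found in 0 of 7 RUNX1 peaks at the genes' own starts. Within 1 kb of any coding start it was found in 1 of 10 (14.5% of such peaks in the list), and away from coding starts in 4 of 6 (37.7%). The 4 peaks with the word were the same in both splits, at CCND3, CDK6 and RB1, so the splits are not separate observations. The windows of the RUNX1 peaks away from coding starts had a median GC content of 51.5%, and those at coding starts 66.8%. Among PTBP1 summits 0 of 14 held the word, against 8.79% of the list.

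No ETS or E2F word was found within 50 bases of any of the 30 summits, and few of either list held one, 3.51 and 3.67% for ETS and 0.715 and 0.806% for E2F. GC boxes were found at 5 of 14 PTBP1 summits (30.3% of the list) and 7 of 16 RUNX1 summits (28.7%). The summit windows at the starts of CDK4, CDKN1A and CDKN2D held 2 each, in both lists.

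Of 30 other genes of the G1 pathway, 11 had a PTBP1 peak within 1 kb of the 5-prime end (36.7%), 7 a RUNX1 peak (23.3%) and 6 a peak of each list (20%), beside 26.4, 21.3 and 17.3% of all coding genes. Counts at canonical starts were the same. The 6 were CCNE2, the cyclin that activates CDK2, E2F1 and its partner TFDP1, and CKS1B, SKP1 and RBX1, which belong to the ubiquitin ligase SCF-SKP2 that degrades p27. RBX1 was the strongest, with folds of 52.9 for PTBP1 and 33.8 for RUNX1, followed by CKS1B with 22.4 and 17.8 on a raised background and CCNE2 with 20.3 and 12.8. TFDP1 (14.5 and 9.77), E2F1 (14.0 and 13.5) and SKP1 (13.4 and 13.5) lay lower.

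PTBP1 peaks alone were found at the starts of CCNE1, CDC25A, E2F4, E2F8 and SKP2, with folds of 6.06 to 14.5, the lowest on a raised background. CCNE1 encodes another partner of CDK2, CDC25A a phosphatase that removes inhibitory phosphates from it, and SKP2 the part of the ligase that recognises p27. A RUNX1 peak alone was found at RBL1, a relative of RB1 that encodes p107, with a fold of 9.77. By role, peaks of each list were at 3 of 5 genes of SCF-SKP2, 2 of 10 E2F and DP factor genes and 1 of 6 genes of the E and A cyclins, CDK2 and CDK3. No peak at the start was found at 18 genes. They included CDKN1C, CDKN2A and CDKN2B, the remaining CDK inhibitors of both families, and the CDK-activating kinase genes CDK7, CCNH and MNAT1. The others were CCNA1, CCNA2, CDK2, CDK3, RBL2, E2F2, E2F3, E2F5, E2F6, E2F7, TFDP2 and CUL1. Most coding genes also lack such a peak, since 26.4% had one of PTBP1 there and 21.3% one of RUNX1. The absence is thus not particular to these genes.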

How the data were processed

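CUT&Tag and CUT&RUN libraries of MOLM-13 cells were aligned to hg38 by the authors with Bowtie2, and peaks were called with MACS3 at a q-value of 1e-07, per the study's methods and the submitters' processing notes, which also name bedtools 2.30.0. Neither list states its assay. Both were treated as CUT&Tag, and whether replicates were pooled is not stated. The deposited values are the fold enrichment at the summit, its −log10 p-value and −log10 q-value, and a score derived from the q-value. Fold and −log10 p-value together were solved for a whole number of fragments at the summit and a background (largest misfit 0.00134), and library depths were not used here.

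Peaks were assigned to a gene when at least 1 base lay in the GENCODE version 44 record or within 10 kb, and to a start when within 1 kb. Motifs were sought within 50 bases of the summit. No test was made: counts stand beside the share of all coding genes or of the whole list. All 10 genes, all their peaks and 30 pathway genes were named. The genes, lists and rules were chosen with earlier results of these data known. Alternatives covered peak strength, flank, start, overlap and motif window. The steps were tested on simulated data. Scripts ran in Python 3.11.15 with scipy 1.17.1, pandas 2.3.3, numpy 2.4.6 and matplotlib 3.10.9.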

Additional observations from a re-analysis of the deposited data

How the results depend on the processing

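A count was held to move when it went beyond 1.5 times the reported value in either direction. A share was held to move when it left its 95% interval. Over 13 counts and shares, 65 of 75 alternatives stayed by this rule and 10 moved. All but 3 of these were other definitions of the start. With only 10 genes, several of the moved gene counts still lay inside the wide Wilson interval of the reported count. With the start of any transcript in place of the 5-prime end of the gene, genes with a PTBP1 peak went from 3 to 6, with a RUNX1 peak from 2 to 7 and with both from 2 to 6. With the canonical start they went to 5 for RUNX1 and 4 for both, and with the start base required inside the peak to 1 for RUNX1 and 1 for both. The share of PTBP1 peaks that overlapped a RUNX1 peak went from 78.6% to 50% when summits had to lie within 200 bases and to 100% within gene bodies alone. The RUNX word was found in 56.25% of RUNX1 peaks when the whole peak was searched, which is a longer stretch. The ranking of overlapping pairs by fragments was chosen after seeing the data. No paired analysis was possible because each target had 1 peak list and no test was made. Without replicate lists, the weak peaks of 13 to 17 fragments have counting intervals as their only error, and a site without a peak may still be bound below the calling threshold.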
